A study of Mus musculus with 16 samples.

Results

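The genes described here make, cleave, bind and sense hyaluronan, a long sugar polymer of the extracellular matrix. They were chosen by name: the hyaluronan synthases Has1, Has2 and Has3, the hyaluronidases Hyal1 and Hyal2, the matrix proteoglycan versican (Vcan) with the link proteins Hapln1 and Hapln3, and the receptor Cd44. Of these 9 genes, 8 were measured, out of 19938 genes that had an array row annotated with a single symbol. Hyal1 was left out because the 2 rows that list it are annotated with another gene as well. The samples were 7 livers of C57BL/6 mice that carry a Pdgf-c transgene and 9 wildtype livers of the same strain, 1 Affymetrix Mouse Gene 1.0 ST array each, and the series asks whether liver stroma contributes to tumour formation. Pdgf-c encodes a platelet-derived growth factor that acts on fibroblasts and hepatic stellate cells. The promoter of the transgene, the age and sex of the mice, and whether each array stands for 1 animal are not given in the sources used here, so p-values cover only the spread between these samples. The cell type label reads stromal cells, yet total hepatic RNA was extracted, and the hepatocyte gene Alb averaged 13.5 in transgenic and 13.6 in wildtype arrays on the log2 scale.

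Hyaluronan is spun out through the plasma membrane by the synthases, which join UDP-glucuronic acid and UDP-N-acetylglucosamine. Versican binds it together with link proteins and forms a loose, hydrated matrix, and hyaluronidases and lysosomal glycosidases break the chains down. Cells hold on to hyaluronan or sense it through CD44, and in the liver, sinusoidal endothelium clears it from blood through scavenger receptors, while activated stellate cells are a known source.

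In the Pdgf-c transgenic livers, Cd44 was the 1 measured member that passed the test at an adjusted p under 0.05. Its level was 1.31-fold above wildtype (log2 difference 0.39 ± 0.0680, SE, limma adjusted p = 0.000344). None of the synthases, Hyal2, versican or either link protein passed the test, and their differences lay between -0.20 and 0.26 on the log2 scale. Some genes around the members passed it: the versican-cleaving protease Adamts5 was 8.47-fold higher, the hyaluronan receptor Layn 1.75-fold higher, and the endothelial hyaluronan receptor Stab2 1.48-fold lower. The called share, 1 of 8 members or 12.5%, compares with 23.2% of all genes at an adjusted p of 0.05 (12.1% higher and 11.1% lower). Among the genes whose mean level lay within the range of the 7 dimmer members, 3.44 to 5.40, the called share was 11.9%, so the count by itself does not set the members apart. In none of the 8 members were the groups free of overlap, against 9.08% of all genes.

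**Figure D1:**
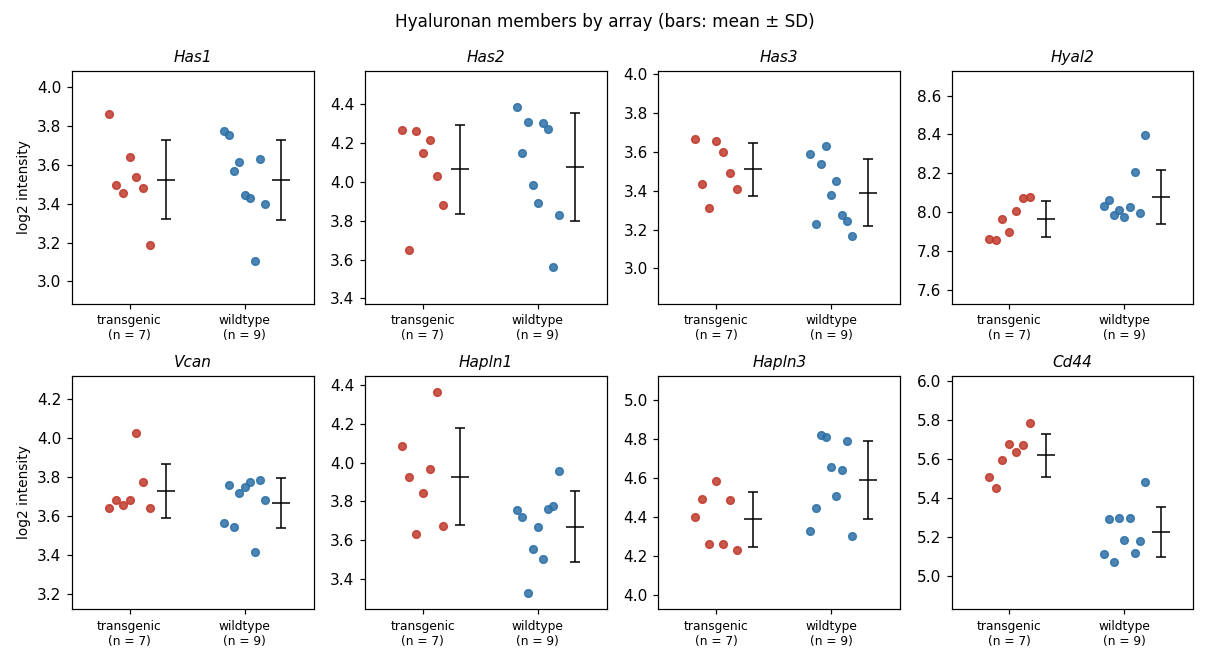
Log2 intensity of the 8 measured members on each of the 7 transgenic (red, left) and 9 wildtype (blue, right) arrays, with the mean ± SD at the side of each group. The Cd44 groups separate except for transgenic array 2 and wildtype array 9, and the other members overlap broadly.

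Levels on these arrays are log2 intensities after GCRMA. Differences of dim rows may be misstated on this scale, which was not tested. This bears on most members: the row means of Has1, Has2, Has3, Vcan and Hapln1 lay between the 19.8th and 29.3th percentile of all rows, Hapln3 at the 36.6th and Cd44 at the 52.5th, while Hyal2 was at the 83.6th. On the array as a whole, the first principal component (26.4% of the variance) separated the groups, and the second (11.5%) placed transgenic array 1 highest (28.8) and wildtype array 9 lowest (-54.4). Wildtype array 9 was the highest wildtype array for Hyal2, Hapln1 and Cd44 and the lowest for Has3 and Hapln3.

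The synthases were read first. HAS2 is the main synthase of mesenchymal cells and is required for heart development in the mouse embryo. Has2 ranged from 3.65 to 4.27 with a median of 4.15 in transgenic arrays, and from 3.56 to 4.39 with a median of 4.15 in wildtype arrays. The groups overlapped, with transgenic array 2 and wildtype array 8 as the lowest of their groups and 4 wildtype arrays above every transgenic one. The difference of Has2 was -0.01 ± 0.125 (SE; limma adjusted p = 0.968), and its 95% interval spans 0.827-fold to 1.19-fold of wildtype. Has1, which mesothelial and synovial cells express, had a lowest value of 3.19, a median of 3.49 and a highest value of 3.86 in transgenic arrays, against 3.11, 3.57 and 3.77 in wildtype arrays. Transgenic array 1 was above and wildtype array 7 below all arrays of the other group, and the difference was -0.00085 ± 0.104 (limma adjusted p = 0.998). Has3, which makes shorter chains, ran from 3.31 through a median of 3.49 to 3.67 in transgenic arrays, and from 3.17 through 3.38 to 3.63 in wildtype arrays. Although 6 of 7 transgenic arrays lay above the wildtype mean, the difference of 0.12 ± 0.0849 missed the threshold (limma adjusted p = 0.381). For all 3 synthases the intervals end at or below 1.23-fold on this scale, on rows near the dim end of the array. The sign of the Has1 and Has2 differences turned in some alternatives, as given further on.

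Sugar donors for the synthases come from the enzymes of UDP-sugar synthesis. Of 9 measured enzymes, 2 were higher and none lower, with a median difference of 0.09 against -0.04 over all genes. The called shares over all genes were 12.1% higher and 11.1% lower. Gfpt2, an isoform of the rate-limiting enzyme of the hexosamine pathway, had 4.81, 4.99 and 5.08 as its lowest, median and highest values in transgenic arrays, and 4.12, 4.57 and 4.88 in wildtype arrays. Transgenic arrays exceeded all wildtype arrays in 6 of 7 cases, and Gfpt2 rose 1.33-fold (0.41 ± 0.0894, limma adjusted p = 0.00256). Nagk, which salvages N-acetylglucosamine by phosphorylating it, rose 1.23-fold (0.30 ± 0.0881, limma adjusted p = 0.0235), and its call was lost without transgenic array 2, 6 or 7 (adjusted p 0.0538 to 0.0580) and with arrays centred on medians (0.0913). Ugdh, which makes UDP-glucuronic acid and was lowest on transgenic array 1 (10.5), averaged 11.2 in transgenic and 11.3 in wildtype arrays, a difference of -0.18 ± 0.107 (limma adjusted p = 0.292). The 2 rows of Hk1, the hexokinase gene of most non-hepatocyte cells, disagreed and lay at unlike levels. The brighter (mean 12.1) differed by 0.11 ± 0.0543 (limma adjusted p = 0.202) and the dimmer (mean 5.47) by 0.49 ± 0.0691 (4.50e-05). Which row measures Hk1 better was not tested. Ugp2 and Uap1, like Hk1 chosen after their values were seen, passed the test in some alternatives. Ugp2, which makes UDP-glucose, differed by 0.11 ± 0.0830 (limma adjusted p = 0.411), and by 0.21 ± 0.0408 without transgenic array 1 (adjusted p = 0.00155). Uap1, which makes UDP-N-acetylglucosamine, differed by -0.21 ± 0.0795 (limma adjusted p = 0.0733), by -0.26 without transgenic array 2 (adjusted p = 0.0291) and by -0.24 without wildtype array 6 (0.0392). It also passed with arrays centred on medians (-0.26, adjusted p = 0.0295) and, at -0.21, where fewer rows were tested (adjusted p 0.0454 to 0.0465).

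**Figure D2:**
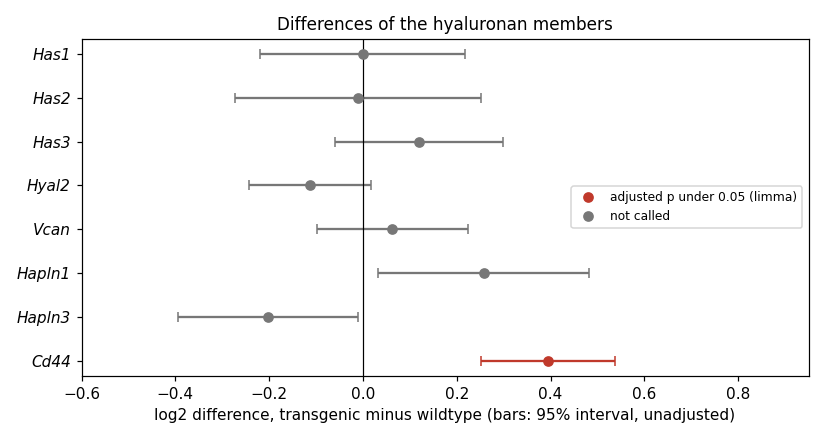
Log2 difference, transgenic minus wildtype, of each measured member with its unadjusted 95% interval from limma (7 against 9 arrays). Cd44 at 0.39 is the called member, the intervals of the synthases, Hyal2 and Vcan include 0, and those of Hapln1 and Hapln3 lie to either side of it.

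Versican did not pass the test, while several genes listed around it did. Vcan ranged from 3.64 to 4.03 with a median of 3.68 in transgenic arrays, and from 3.41 to 3.79 with a median of 3.72 in wildtype arrays. Transgenic array 5 stood above all others, and the remaining transgenic arrays lay within the wildtype range. The difference of Vcan was 0.06 ± 0.0763 (SE; limma adjusted p = 0.638), with an interval of 0.935-fold to 1.17-fold of wildtype, and 0.01 without transgenic array 5. The link protein gene Hapln1, whose product locks hyaluronan to proteoglycans in cartilage, had values of 3.63, 3.92 and 4.36 (lowest, median, highest) in transgenic arrays, against 3.33, 3.72 and 3.96 in wildtype arrays. The groups overlapped in part, since 3 of 7 transgenic arrays exceeded every wildtype array while the rest did not, and the difference was 0.26 ± 0.107 (raw p 0.0271, limma adjusted p = 0.109). Hapln3, a link protein gene expressed more broadly, ran the other way, with 4.23, 4.40 and 4.58 in transgenic arrays and 4.30, 4.64 and 4.82 in wildtype arrays. All 7 transgenic arrays lay below the wildtype mean, and 5 wildtype arrays exceeded every transgenic one. The difference was -0.20 ± 0.0914 (raw p 0.0400, limma adjusted p = 0.144), and after centring arrays on their medians Hapln3 passed the test at -0.25 (adjusted p = 0.0476).

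Proteases that cut versican were higher in 3 of 6 measured genes and lower in none, with a median of 0.28 (all genes: 12.1% higher, 11.1% lower). Adamts5, an aggrecanase that also cleaves versican, had its lowest, median and highest values at 7.11, 7.66 and 7.96 in transgenic arrays, against 4.22, 4.53 and 4.80 in wildtype arrays. The groups were far apart, and the rise was 8.47-fold (3.08 ± 0.112, limma adjusted p = 1.44e-12). Adamts1, needed in the mouse ovary for versican cleavage, was at 6.92, 7.03 and 7.28 in transgenic arrays, against 6.10, 6.46 and 7.04 in wildtype arrays. Wildtype array 9 alone reached the transgenic range here, and the rise was 1.49-fold (0.57 ± 0.107, limma adjusted p = 0.000725). Adamts9, another versican-cleaving protease, rose 1.36-fold in its brightest row (0.45 ± 0.0751, limma adjusted p = 0.000261), in which the groups did not overlap. Its 6 rows were all called higher, from 0.45 to 1.53 on the log2 scale, so the size of this rise depends on the row, and the mean over them gave 0.93. Adamts4, also an aggrecanase, differed by 0.11 ± 0.0926 (limma adjusted p = 0.491), and Adamts15 by 0.00092 ± 0.0889 (0.997).

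**Figure D3:**
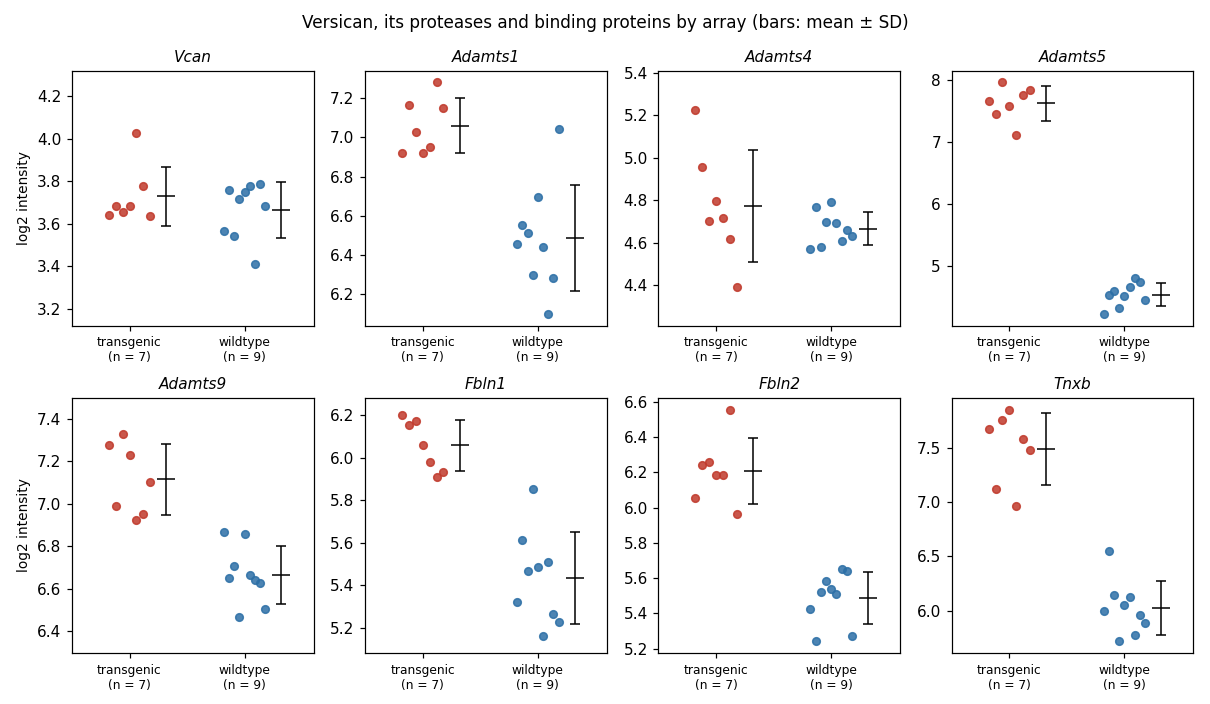
Log2 intensity of versican, 4 of its proteases and 3 matrix protein genes listed with it on each transgenic (red, left) and wildtype (blue, right) array, with mean ± SD at the side. Vcan and Adamts4 overlap between the groups, while Adamts5, Adamts9, Fbln1, Fbln2 and Tnxb do not.

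Of 8 measured genes listed as matrix partners of versican, 4 were higher and none lower (median 0.33), against 12.1% higher and 11.1% lower over all genes. The list is broad, and whether the products of Tgfbi, Tnxb and Efemp1 bind versican was not examined here. Tgfbi, which encodes a collagen-associated matrix protein induced by TGF-beta, had 9.01, 9.33 and 9.42 as its lowest, median and highest values in transgenic arrays, against 7.44, 7.76 and 8.05 in wildtype arrays. Tnxb, the tenascin of loose connective tissue, had 6.97, 7.59 and 7.85 in transgenic arrays, against 5.71, 6.00 and 6.55 in wildtype arrays. In neither gene did the groups overlap, and the rises were 2.87-fold (1.52 ± 0.0815, limma adjusted p = 2.64e-10) and 2.77-fold (1.47 ± 0.133, limma adjusted p = 2.53e-07). The fibulin genes Fbln2 and Fbln1, whose products bind the lectin domain of versican, rose 1.65-fold (0.72 ± 0.0837) and 1.54-fold (0.62 ± 0.0904), again without overlap (limma adjusted p-values 5.30e-06 and 5.86e-05). Tnc, the tenascin of healing wounds, differed by -0.13 ± 0.0832 (limma adjusted p = 0.334) and Efemp1, a fibulin-like gene, by 0.04 ± 0.116 (0.874).

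Versican carries chondroitin sulphate chains. Of 21 measured enzymes of their synthesis 5 were higher and 2 lower, with a median of -0.0018 (all genes: 12.1% higher, 11.1% lower). Chst14, which adds the sulphate of dermatan chains, had 6.61, 6.86 and 6.93 in transgenic arrays, against 5.80, 6.25 and 6.46 in wildtype arrays (lowest, median, highest). It rose 1.50-fold (0.58 ± 0.0866, limma adjusted p = 7.54e-05) with no overlap of the groups. The sulphotransferases Chst15 and Ust also rose without overlap, by 1.43-fold (0.52 ± 0.105, limma adjusted p = 0.00148) and 1.42-fold (0.50 ± 0.0868, limma adjusted p = 0.000347). All 3 encode sulphotransferases, whereas the called glycosyltransferase genes of the list were split. Chsy1 and Chpf were higher by 0.24 and 0.26, and Chpf2 and B4galt7 lower by 0.22 and 0.25 on the log2 scale (limma adjusted p-values 0.0137, 0.00426, 0.0154 and 0.0299). Chsy1 lost its call after quantile normalization (0.16, adjusted p = 0.0856). B4galt7 lost its call in 7 alternatives, namely when wildtype array 1, 2, 3 or 7 was left out and when transgenic array 3, 5 or 6 was, at adjusted p-values of 0.0508 to 0.0691.

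Breakdown of hyaluronan starts with the hyaluronidases. Hyal2, a membrane-anchored enzyme that cuts long chains at the cell surface, had its lowest, median and highest values at 7.86, 7.97 and 8.08 in transgenic arrays, against 7.97, 8.02 and 8.40 in wildtype arrays. Transgenic arrays 1, 2, 3 and 4 lay below every wildtype array and the others within the wildtype range. The difference was -0.11 ± 0.0619 (limma adjusted p = 0.243), with an interval of 0.845-fold to 1.01-fold, and it was -0.07 without wildtype array 9. Of 9 other degrading enzymes, 1 was higher and 1 lower (median -0.06), against 12.1% and 11.1% of all genes. Hexa, a lysosomal hexosaminidase that trims short fragments, had 9.49, 9.68 and 9.82 in transgenic arrays, against 9.11, 9.37 and 9.60 in wildtype arrays, a rise of 1.25-fold (0.33 ± 0.0665, limma adjusted p = 0.00162) in which 6 of 7 transgenic arrays exceeded all wildtype ones. Cemip2, a cell surface protein reported to depolymerise hyaluronan in the mouse, was 1.19-fold lower (-0.25 ± 0.0802, limma adjusted p = 0.0359). That call was lost in 12 alternatives: with array weights, when wildtype array 2, 3, 5, 6, 8 or 9 was left out, when transgenic array 1, 4, 6 or 7 was, and with transgenic array 1 and wildtype array 9 both out. The difference then lay between -0.20 and -0.25, at adjusted p-values of 0.0538 to 0.0856. Hyal3 differed by -0.06 ± 0.0677 (limma adjusted p = 0.585), Cemip, a hyaluronan-binding protein of fibroblasts, by -0.0040 ± 0.0800 (0.982) and the glucuronidase gene Gusb by -0.06 ± 0.0660 (0.629).

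Cd44 encodes the principal adhesion receptor for hyaluronan, found on leukocytes, activated stellate cells and many epithelia. Its values were 5.45, 5.64 and 5.79 in transgenic arrays, against 5.07, 5.18 and 5.48 in wildtype arrays (lowest, median, highest). Every transgenic array was above the wildtype mean, 6 of 7 exceeded all wildtype arrays, and wildtype array 9 was the single wildtype array to reach the transgenic range. The Cd44 means were 5.62 ± 0.113 (SD, n = 7) in transgenic and 5.22 ± 0.129 (SD, n = 9) in wildtype arrays, and the interval of the difference corresponds to 1.19-fold to 1.45-fold. In all 27 alternatives Cd44 was called higher, at 0.33 to 0.45 on the log2 scale (limma adjusted p 8.68e-05 to 0.00371). Transcript variants of Cd44 cannot be told apart in a single row.

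Promoter sequences are shown for the receptor genes that changed in opposite directions and for versican, which was not called, so that their base composition and motifs can be compared. They are the 250 bases before the annotated start from RefSeq on GRCm38.p6, 5′ to 3′ on the gene's strand, with matches to the motifs searched in capitals. Of the 9 members, 7 were in that table; Has2 and Has3 were not. The motifs were GGGCGG of Sp1, TGANTCA of AP-1, GGAATG of TEAD factors and the TATA box TATAAA, on both strands, and they are held by 32.7%, 6.75%, 12.6% and 12.4% of 32851 promoters of the same length. The Cd44 stretch (chr2:102901666-102901915, minus strand, 56.4% G and C) held none of the 4, as did that of Stab2 (chr10:87007943-87008192, minus strand, 53.2%). That of Layn (chr9:51077095-51077344, minus strand, 61.2%) held 3 Sp1 motifs and that of Vcan (chr13:89742513-89742762, minus strand, 62.4%) held 2.
Cd44: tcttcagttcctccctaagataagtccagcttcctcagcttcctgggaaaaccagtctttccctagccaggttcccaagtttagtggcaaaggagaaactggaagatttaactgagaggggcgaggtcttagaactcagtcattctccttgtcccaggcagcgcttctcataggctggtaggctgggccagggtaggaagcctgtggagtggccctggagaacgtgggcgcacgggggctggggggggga
Layn: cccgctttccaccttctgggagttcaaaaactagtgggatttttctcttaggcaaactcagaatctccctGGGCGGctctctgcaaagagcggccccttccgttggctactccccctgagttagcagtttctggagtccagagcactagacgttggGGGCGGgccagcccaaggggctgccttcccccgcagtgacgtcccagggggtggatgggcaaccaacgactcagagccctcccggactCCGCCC
Stab2: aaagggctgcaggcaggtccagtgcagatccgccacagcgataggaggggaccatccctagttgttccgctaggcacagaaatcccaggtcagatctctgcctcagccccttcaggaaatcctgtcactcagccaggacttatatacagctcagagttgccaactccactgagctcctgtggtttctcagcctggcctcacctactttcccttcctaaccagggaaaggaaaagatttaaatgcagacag
Vcan: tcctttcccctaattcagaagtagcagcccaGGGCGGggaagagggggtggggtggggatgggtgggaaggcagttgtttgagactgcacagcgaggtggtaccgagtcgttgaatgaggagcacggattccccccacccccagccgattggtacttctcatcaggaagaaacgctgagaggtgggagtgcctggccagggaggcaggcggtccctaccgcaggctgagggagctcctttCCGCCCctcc

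Among 8 other receptors and surface binders, 3 rose and 1 fell, with a median of 0.07 (all genes: 12.1% higher, 11.1% lower). Layn, which encodes layilin, a lectin-type hyaluronan receptor, had 5.04, 5.32 and 5.71 in transgenic arrays, against 3.99, 4.54 and 4.81 in wildtype arrays (lowest, median, highest). It rose 1.75-fold (0.80 ± 0.117, limma adjusted p = 6.12e-05), without overlap of the groups. The Toll-like receptor genes Tlr4 and Tlr2, whose products respond to microbial ligands and have been reported to sense hyaluronan fragments, rose 1.55-fold (0.64 ± 0.0763, limma adjusted p = 7.52e-06) and 1.45-fold (0.53 ± 0.0729, limma adjusted p = 3.32e-05). The groups did not overlap in either gene. The clearance receptor gene Stab2 had 6.86, 7.36 and 7.43 in transgenic arrays, against 7.69, 7.83 and 8.13 in wildtype arrays, and fell by 0.56 ± 0.0850 (limma adjusted p = 9.39e-05), 1.48-fold lower and without overlap. Stab1, its relative on sinusoidal endothelium and macrophages, differed by -0.21 ± 0.0809 (limma adjusted p = 0.0905), and passed the test without wildtype array 4 (-0.24, adjusted p = 0.0456), after quantile normalization (-0.24, 0.0291) and with arrays centred on medians (-0.26, 0.0443). Lyve1, the hyaluronan receptor of lymphatic and sinusoidal endothelium, differed by -0.17 ± 0.126 (limma adjusted p = 0.394). Hmmr, an intracellular hyaluronan-binding protein of dividing cells, averaged 2.57 in transgenic and 2.38 in wildtype arrays, under the 20th percentile of row means (3.46), so no fold is given (limma adjusted p = 0.0827). Hmmr passed the test with eBayes without trend (adjusted p = 0.0483) and without wildtype array 2 (0.0368).

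**Figure D4:**
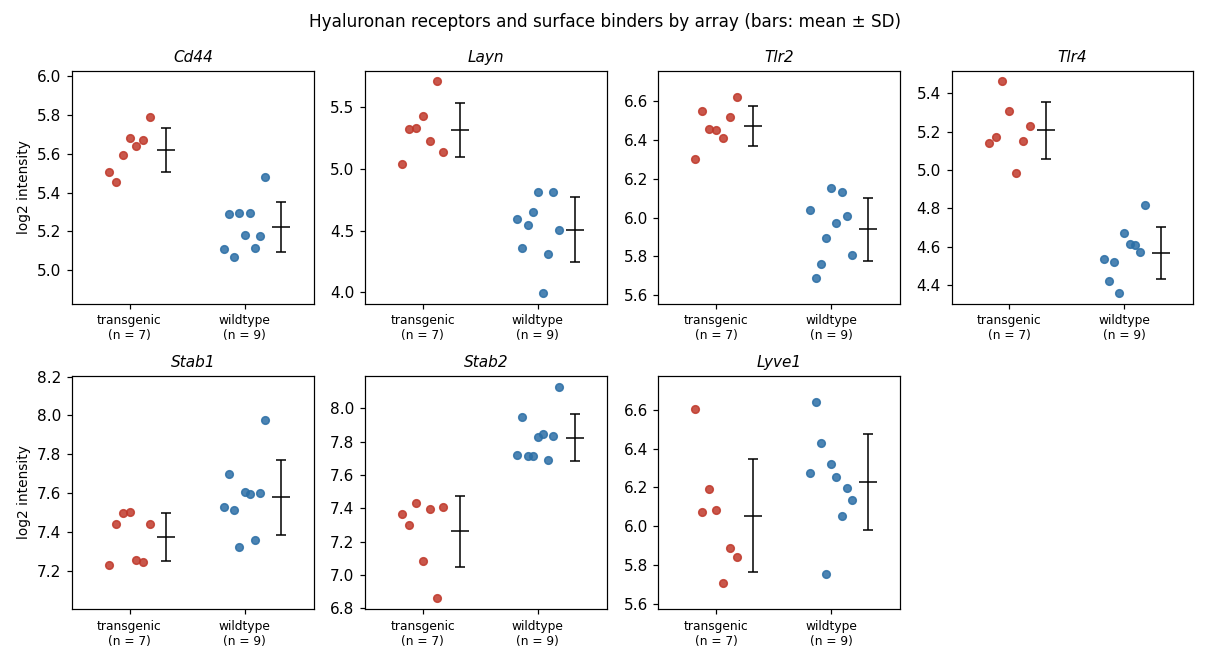
Log2 intensity of Cd44 and 6 other hyaluronan receptor or binder genes on each transgenic (red, left) and wildtype (blue, right) array, with mean ± SD at the side. Layn, Tlr2 and Tlr4 are higher and Stab2 lower in the transgenic arrays without overlap, and Stab1 and Lyve1 overlap.

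Around Cd44 itself, 6 of 11 measured genes for cytoplasmic partners, ligands and sheddases rose and none fell (median 0.31). Over all genes 12.1% were called higher and 11.1% lower. These shares are not matched to level, since 10 of the 11 genes lay above the median row level. Of the 17778 rows above it, tested by themselves, 3318 were higher and 2959 lower. Msn encodes moesin, which ties the CD44 tail to actin, and had 8.33, 8.53 and 8.69 in transgenic arrays, against 7.12, 7.38 and 7.67 in wildtype arrays. It rose 2.16-fold (1.11 ± 0.0735, limma adjusted p = 4.20e-09) without overlap, while its relatives Ezr and Rdx differed by 0.14 ± 0.0899 (limma adjusted p = 0.320) and -0.11 ± 0.0767 (0.373). Mmp14, a membrane protease that can shed CD44, rose 1.54-fold (0.63 ± 0.0715, limma adjusted p = 4.24e-06), and Iqgap1, a scaffold of the actin cortex, 1.38-fold (0.47 ± 0.0744, limma adjusted p = 0.000165), both without overlap. The others that rose were Ank3, Srgn and Adam10, by 0.44, 0.38 and 0.31. Hbegf, chosen after its values were seen, differed by -0.18 ± 0.129 (limma adjusted p = 0.384), and passed the test lower, at -0.33, with transgenic array 1 and wildtype array 9 both left out (adjusted p = 0.0155).

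The proteins that stabilise hyaluronan in serum and cartilage made up the last list. In it 1 of 13 genes was higher and 5 were lower, with a median of -0.17 (all genes: 12.1% higher, 11.1% lower). Hepatocytes make the heavy chains of inter-alpha-inhibitor, which are transferred to hyaluronan, and its light chain bikunin (Ambp). Itih4, a relative of these heavy chain genes, had 11.7, 11.9 and 11.9 in transgenic arrays (lowest, median, highest), against 12.1, 12.2 and 12.4 in wildtype arrays. It was 1.30-fold lower (-0.38 ± 0.0434, limma adjusted p = 3.78e-06). Itih1, Itih3 and Ambp were lower by 0.24, 0.21 and 0.17 on the log2 scale (limma adjusted p-values 1.21e-05, 0.0223 and 5.28e-05), and among Itih1, Itih3, Itih4 and Ambp the groups overlapped in Itih3 alone, whose call was lost without transgenic array 6 (adjusted p = 0.0502). Itih2 differed by -0.0042 ± 0.0312 (limma adjusted p = 0.949). Hapln4, a link protein gene of brain, was 1.27-fold lower (-0.35 ± 0.0892, limma adjusted p = 0.00899). Itih5, another member of the heavy chain family, was 1.24-fold higher (0.31 ± 0.0992, limma adjusted p = 0.0366), a call lost in 9 alternatives (adjusted p 0.0516 to 0.0969): both other scalings, and leaving out wildtype array 1, 3, 4 or 6, or else transgenic array 1, 6 or 7. Acan, which encodes the cartilage lectican aggrecan, differed by -0.10 ± 0.0907 (limma adjusted p = 0.491), and Tnfaip6, which moves the heavy chains onto hyaluronan, by 0.23 ± 0.137 (0.297).

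**Figure D5:**
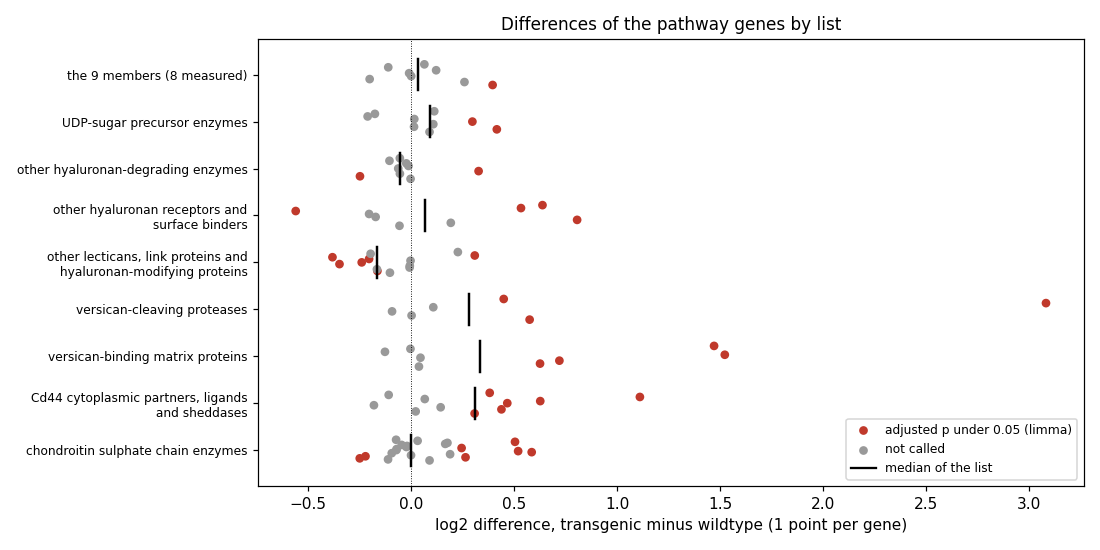
Log2 difference, transgenic minus wildtype, of each gene (1 point) in the members and in 8 lists of related genes, with the list median as a bar. Called genes (limma adjusted p under 0.05) are red, and Adamts5 at 3.08 lies farthest to the right.

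Together the 8 lists held 85 measured genes, of which 25 were higher and 9 lower (40.0% called, against 23.2% of all genes), with a median of 0.01 against 0.03 for the members and -0.04 for all genes. Without transgenic array 1 and wildtype array 9 the counts were 26 and 10. Called shares differed with level: of the 17778 rows above the median level, tested by themselves, 3318 were higher and 2959 lower. Neither the 23.2% nor the shares given beside each list are matched to the level of the list genes. The 40.0% and the counts per list therefore do not by themselves set these genes apart. Cell type markers moved between the same groups. In the stellate cell and fibroblast list 9 of 9 genes were higher, and the mean level over the list was 8.54 to 8.89 in transgenic arrays and 6.41 to 7.08 in wildtype arrays. All 4 measured markers of monocyte-derived macrophages were higher (7.01 to 7.67 in transgenic, 5.16 to 5.62 in wildtype arrays). Of 7 genes in the lymphocyte list 4 were higher, namely Cd3g, Cd79a, Nkg7 and Ptprc (5.23 to 5.63 in transgenic, 4.86 to 5.02 in wildtype arrays over the list). Ptprc is expressed by leukocytes in general, so its rise of 0.97, which enters the list mean, is not particular to lymphocytes. Cd3e, Cd8a and Cd4 were not called, with differences of 0.08, 0.25 and 0.02 (limma adjusted p-values 0.549, 0.0545 and 0.927). Of 6 neutrophil markers 4 were higher, while Mpo and Elane were not called (list mean up to 6.39 in transgenic and up to 4.70 in wildtype arrays, without overlap). Sinusoidal endothelial markers, which include Stab2 and Lyve1, were lower in 5 of 6 cases (6.18 to 6.64 in transgenic, 7.48 to 7.88 in wildtype arrays), and Kupffer cell markers in 6 of 6 (5.10 to 6.16 in transgenic, 7.19 to 8.11 in wildtype arrays). Smooth muscle markers were higher in 2 of 4 cases, Acta2 and Tagln, while Myh11 and Cnn1 were not called (5.75 to 6.08 in transgenic, 5.35 to 5.52 in wildtype arrays). Mesothelial markers, relevant to Has1, had 1 of 6 higher (Wt1), with 5.07 to 5.38 in transgenic and 4.96 to 5.25 in wildtype arrays. None of 4 measured cholangiocyte markers was called (5.10 to 5.42 in transgenic, 5.16 to 5.32 in wildtype arrays). Of 5 hepatocyte markers Apoa1 was higher and Ttr and Fgb were lower (13.2 to 13.3 in transgenic, 13.2 to 13.4 in wildtype arrays). Among other alternatives, the Apoa1 call was lost with arrays centred on medians, with 1 mean per gene, with eBayes without trend, and when transgenic array 1, 3 or 4 or any of wildtype arrays 1, 4 and 7 was left out. Likewise, 1 of the lower calls was lost after quantile normalization, with eBayes without trend and when transgenic array 2 or 3 was left out. The part of these cell types in the Cd44, Layn, Tlr2, Tlr4, Stab2, protease and inter-alpha-inhibitor family results was not tested. In bulk RNA more cells of a type and more RNA per cell cannot be told apart.

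How the members varied together was examined within each group, over 28 pairs of members and 2 groups. Pearson's r ranged from -0.71 to 0.80 with a median of 0.11 among the 7 transgenic arrays, and from -0.67 to 0.67 with a median of -0.12 among the 9 wildtype arrays. In an exact permutation test over all pairings (two-sided), 4 of 56 correlations had a raw p under 0.05 and none passed after Benjamini-Hochberg adjustment (smallest adjusted p = 0.613 for r and 0.378 for Spearman's rho). The highest r was that of Hyal2 with Cd44 among transgenic arrays, at 0.80 (rho 0.79, exact p 0.0319 and 0.0480, adjusted 0.613 and 0.711, permutation), and 0.64 without the arrays farthest from the median of Hyal2. Among wildtype arrays that pair had an r of 0.60 (rho 0.33, exact p 0.0817 and 0.385, permutation, adjusted 0.613 and 0.81). Over the 16 arrays, each centred on its group mean, the genes whose pattern was most like that of Cd44 among 19937 others were Norad (r = 0.85, rho 0.83), Aagab (r = 0.84, rho 0.78) and Mtmr2 (r = 0.84, rho 0.84). These values only describe the closest matches found in that search, and none of the 3 genes differed between the groups at the threshold (differences of -0.00057, -0.15 and 0.05).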

How the data were processed

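The authors deposited 1 table of 35557 rows for 16 arrays, 7 transgenic and 9 wildtype, grouped by their titles. The deposited values are log2 intensities that the authors normalized with GCRMA, per the submitters' processing notes (range 0.71 to 14.7, column medians 5.20 to 5.36). The version and the log base are not given in the sources used here, and base 2 was read from the range of values. Rows were named from the platform annotation (21789 with 1 symbol, 1621 with several, 12147 unlisted), and the brightest single-symbol row stood for a gene. Limma 3.58.1 in R 4.3.3 compared the groups on all rows (lmFit, eBayes with trend, two-sided, Benjamini-Hochberg over all rows, threshold 0.05), after a check on simulated data. Of 27 alternatives, 16 left out single arrays. Named genes were the members, per list the 3 called genes with the largest absolute difference (higher group mean above the 20th percentile of row means), the 3 genes most like a called member, and markers. Other list genes given with values were chosen after their values were seen. Members and lists were chosen with earlier results of these data known, so the list counts are no independent support. Python 3.11.15, scipy 1.17.1 and matplotlib 3.10.9 were used. Scanner files, scan dates and detection calls were not analysed here.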

Additional observations from a re-analysis of the deposited data

Results flagged for a closer look

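Each of 30 named genes was checked in both groups for 1 array far from the rest of its group (Dixon's ratio of gap to range, 60 groups in all, of which chance flags about 1 in 20), and 2 arrays stood out. Vcan was at 4.03 on transgenic array 5, where the next transgenic array was at 3.78, a gap of 0.647 of the range. Tgfbi was at 9.01 on transgenic array 1, where the next lowest transgenic array was at 9.26, a gap of 0.611 of the range, and it still lay above all wildtype arrays.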

How the results depend on the processing

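Of 35557 rows, 6721 were called, and 5722 to 7561 under the alternatives that tested all of them. Where fewer were tested, the calls numbered 5080 (1 mean per gene, 19938 genes) to 6840 (31024 rows, with the floor). Higher calls made up 56.3% of them, against 48.3% after quantile normalization and 38.0% with arrays centred on medians. Cd44 was the 1 member called higher, under all 27 alternatives. The count of members called lower was 0 in limma's test (Hapln3 had a raw p of 0.0400) and 1, Hapln3, with arrays centred on medians. The Has1 difference turned to 0.0036 after quantile normalization and ranged from -0.0734 to 0.0551 with arrays left out, and that of Has2 ranged from -0.0755 to 0.0583 with arrays left out and was -0.12 with the replicate block; the cause was not tested. Has3, Hyal2, Vcan, Hapln1 and Hapln3 kept their signs wherever they were tested. Only Cd44 and Hyal2 lie above the median row level, so that filter gave no value for the other members. With the replicate number as a block (replicate block, numbers 1 to 7), 5722 rows were called, Cd44 stayed called, Chpf2 and Chsy1 lost their calls (adjusted p 0.0981 and 0.0924), and other pathway genes had 24 higher and 8 lower calls. Deviations of samples with the same number correlated at -0.0186 to 0.0859. Samples of unlike number were not compared in this way, so whether those of like number share more than the number was not tested. Over the alternatives, other pathway genes had 21 to 27 higher and 6 to 12 lower calls. The lowest count of higher calls, 21, came from the filter above the median row level, which tested only part of these genes. The number of arrays and the low signal of most members limit the precision.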
